A study of Caenorhabditis elegans with 2 samples.

Results

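The BBSome genes of the nematode Caenorhabditis elegans were described here by the recovery of the forkhead transcription factor FKH-8 in chromatin. They are 8 genes of 19973 nuclear protein-coding genes, chosen by name: the 7 subunit genes bbs-1, bbs-2, bbs-4, bbs-5, osm-12, bbs-8 and bbs-9, and arl-6, which encodes the GTPase that recruits the complex to membranes. All 8 were found in the annotation of the WBcel235 assembly (ce11). Chromatin immunoprecipitation with sequencing (ChIP-seq) was made from strain OP652, genotype unc-119(tm4063) III; wgIs652. The transgene adds GFP and FLAG to the C-terminal end of FKH-8, and both replicates carry the same unc-119 mutation and transgene. The labels do not name the promoter that drives it. The worms were whole L1 larvae, males and females pooled, starved after bleaching and taken 6 hours after synchronization. The 2 biological replicates formed 1 group, and conditions could therefore not be compared. The labels name GFP as the antibody's target in the description and fkh-8 in the antibody field.

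The BBSome is a coat-like complex that rides on intraflagellar transport (IFT) trains and carries membrane proteins into and out of cilia. In humans, loss of its subunits causes Bardet-Biedl syndrome. In C. elegans, cilia are found on sensory neurons, and many ciliary genes, BBSome genes among them, are known to be switched on by the RFX factor DAF-19 through a promoter element called the X-box. FKH-8, a forkhead factor, is known to act on ciliary genes in the same neurons. Ciliated neurons are a small part of a larva, and in whole animals a low peak from few cells and a low peak from weak binding cannot be told apart.

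In the pooled list, the highest peak near the 5′ end lay beside an X-box at bbs-1, bbs-2, bbs-4, bbs-5, osm-12 and bbs-8. So did the arl-6 peak, which lies beyond the promoter window defined below. At bbs-9 no pooled summit fell in that window. The bbs-2 peak was low (signal 41.2, rank 14155 of 17956), in the part of the list that includes background. Of all reproducible peaks (defined below), 14.3% had an X-box with at most 1 mismatch within 50 bp, the distance meant by beside here. The bbs-2 peak is not among the reproducible ones, and the share over the whole pooled list is not given here. Of the sites at these 7 members, 6 are shown first. The site of bbs-1, 8 bp from its summit and without a mismatch, is not printed and is given with that gene by its position. Each line gives the X-box match nearest to a peak summit in the pooled list, in capitals, with 8 flanking bases on each side, read 5′ to 3′ on the gene's own strand from the RefSeq genome. A match is to the RFX X-box consensus of 14 columns, on either strand, with at most 1 mismatch.
bbs-4: gtccgcgaGTTTCCATGGCAACggcaagga
bbs-5: taccaccgGTCTCCATGGCAACtctgctca
osm-12: cagctcatGTTGCCATAGTAACtcgacaac
bbs-8: cgtgccctGTACCCATGGCAACgacacgtc
bbs-2: ctctttcaGTATCCATGGCAACatgtaagc
arl-6: gtttgcttGTTTCCATGGTTACctgcttga
On ce11 these stretches are chrIII:9612234-9612263 for bbs-4, chrIII:10261702-10261731 for bbs-5, chrIII:12202536-12202565 for osm-12 and chrV:6765080-6765109 for bbs-8, each on the minus strand. They are chrIV:7934026-7934055 on the plus strand for bbs-2 and chrIII:4815932-4815961 on the minus strand for arl-6. The sites of bbs-4, bbs-5 and osm-12 had no mismatch, and those of bbs-8, bbs-2 and arl-6 had 1. Each of the 6 matched in both orientations with at most 1 mismatch, since the element is an imperfect palindrome. Between pairs of the 6 printed sites, bbs-1 left out, 11 to 13 of 14 bases were identical in the better of both orientations. The 8 bases GTTGCCAT, or their reverse complement, occurred in 5 of the 6 printed sites, all but arl-6. The window of bbs-1 holds no such run, so it was found in 5 of the 7 members with an X-box beside the peak. That run was picked after the sites were seen.

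A reproducible peak is one in the deposited optimal list, which per the labels holds peaks past an irreproducible discovery rate (IDR) threshold. The word stands for being in that list only, and such a peak need not rank high in both replicates. The promoter window ran from 1000 bp upstream to 200 bp downstream of a gene's annotated 5′ end. In C. elegans that end is often the site where a spliced leader is joined. A reproducible summit lay in the window of 5 of the 8 genes, bbs-1, bbs-4, bbs-5, osm-12 and bbs-8, where 13.8% of all coding genes had one. It lay in the window of none of bbs-2, bbs-9 and arl-6. Elsewhere in the gene, 0 of 8 had a reproducible summit, and 4.79% of all coding genes did. None of the 5 summits was shared with the window of another coding gene, and the share over all bound genes is not given here. None of the adjacent upstream genes (Y105E8A.32, gcy-8, pri-1, inpp-4B, Y75B8A.13, clik-1, C48B6.10 and F26A1.7) had a reproducible summit in its own window. Among all coding genes 13.8% did, and for so few genes none is close to that share. All 8 of these neighbours are on the same strand as the BBSome gene next to them.

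**Figure D1:**
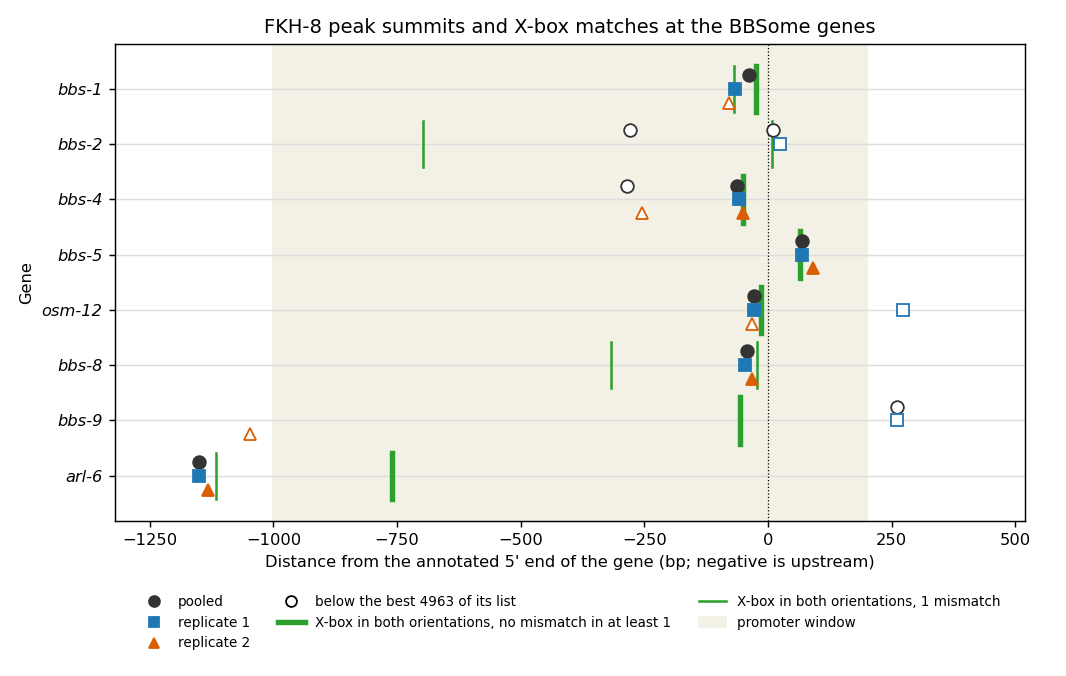
Summits in the pooled and both replicate lists by distance from each gene's annotated 5′ end (bp). Low peaks deeper inside the genes than the axis reaches are not shown. Open symbols rank below the best 4963 peaks of their list, shading is the promoter window, and green bars are X-box matches in both orientations. At bbs-1, bbs-4, bbs-5, osm-12 and bbs-8 the highest summits of all 3 lists cluster near the 5′ end beside an X-box. At arl-6 they lie beyond the window, and bbs-9 has an X-box without a summit beside it. Some low summits, as at bbs-2, bbs-4, osm-12 and bbs-9, lie apart from these.

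The lists differ in what they hold. The optimal list had 4963 peaks with signals from 94.9 to 2101.8, and these were the 4963 pooled peaks with the highest signal. The pooled list held 17956 peaks in all, replicate 1 held 19354 and replicate 2 held 21452, background regions included. The signal is the authors' value per peak, with a scaling that is not stated, so it ranks peaks within 1 list and is not compared between lists. Rank 1 is the highest signal. The read depth is unknown.

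The subunits with β-propeller domains, by their mammalian counterparts, are those of bbs-1, bbs-2, osm-12 and bbs-9. Of these, 2 had a reproducible peak in the window, beside 13.8% of all coding genes, and both were near the cutoff. Grouping by domain only orders the text here, and no difference between such groups was tested. The osm-12 gene, which encodes the BBS7 subunit, lies at chromosome III, 12190972 to 12202537, on the minus strand. Its peak at 12202357 to 12202772 had a signal of 97.8 in the optimal and pooled lists, 54.9 in replicate 1 and 43.5 in replicate 2. Those signals ranked 4811 of 4963 in the optimal list, 4230 of 19354 in replicate 1 and 5726 of 21452 in replicate 2. The peak was thus just inside the optimal cutoff, and its rank was higher in replicate 1. The intergenic summit lay 28 bp upstream of the 5′ end, 29 bp upstream in replicate 1 and 32 bp in replicate 2. The osm-12 X-box ended 7 bp upstream of the 5′ end, and the summit was 8 bp from it.

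The 160 bp upstream of osm-12 are shown because both the site and the summit fall in them (chrIII:12202538-12202697, minus strand, ce11, RefSeq), with the X-box in capitals and the gene's first base directly after the last letter.
osm-12: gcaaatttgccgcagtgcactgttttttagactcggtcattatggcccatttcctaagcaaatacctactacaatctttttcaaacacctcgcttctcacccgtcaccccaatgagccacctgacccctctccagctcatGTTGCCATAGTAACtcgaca
In the 1000 bp upstream to 200 bp downstream of osm-12, neither forkhead core searched, GTAAACA or ATAAACA, occurred on either strand, nor did GACGC. Both replicates placed a further low peak inside the gene, in an intron in each case. It had a signal of 26.2 at 273 bp downstream in replicate 1 (rank 11795) and 17.7 at 6512 bp downstream in replicate 2 (rank 19344). They are different places, and the pooled list had neither. The replicate 2 summit also lay in an intron of Y75B8A.44, a coding gene on the plus strand.

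The TPR-repeat subunits bbs-4 and bbs-8, again named from their mammalian counterparts, had the highest peaks of the 8 genes in every list. The bbs-8 gene lies at chromosome V, 6762467 to 6765072, on the minus strand. Its peak at 6764907 to 6765322 had a signal of 189.3 in the optimal and pooled lists, 84.9 in replicate 1 and 96.0 in replicate 2. These ranked 2020 of 4963, 2352 of 19354 and 2090 of 21452. The summit was intergenic, 43 bp upstream of the 5′ end, and 46 and 33 bp upstream in replicates 1 and 2. The 160 bp before bbs-8 follow, with the X-box in capitals (chrV:6765073-6765232, minus strand, ce11, RefSeq).
bbs-8: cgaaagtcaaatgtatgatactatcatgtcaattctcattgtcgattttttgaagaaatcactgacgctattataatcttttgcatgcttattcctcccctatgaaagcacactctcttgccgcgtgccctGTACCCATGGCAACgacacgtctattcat
This X-box differs from the consensus in 1 column and lay 14 bp from the summit, 17 bp in replicate 1 and 4 bp in replicate 2. The stretch also holds GACGC, a core known from FOXN-type forkhead proteins, 50 bp from the summit. A further X-box match of bbs-8 with 1 mismatch, at -324 to -311 from the 5′ end, was 268 bp from the nearest pooled summit.

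At bbs-4 (chromosome III, 9609390 to 9612197, minus strand) the peak at 9612052 to 9612467 had a signal of 172.6 in the optimal and pooled lists, 81.7 in replicate 1 and 84.3 in replicate 2. The ranks were 2315 of 4963, 2464 of 19354 and 2480 of 21452, the closest pair of replicate ranks among the members with a peak in both. The summit, 63 bp upstream of the 5′ end, lay in the 3′ UTR of pri-1, a DNA primase subunit gene that ends 56 bp before bbs-4 begins. The summits of replicates 1 and 2 were at 58 and 51 bp upstream, both inside the X-box printed above, and the pooled summit was 5 bp from it. GACGC occurred 1 bp from the pooled summit. A low second peak lay further upstream within the coding sequence of pri-1, with a signal of 38.6 in the pooled list (rank 15844) and 17.1 in replicate 2 (rank 20356).

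The bbs-5 gene encodes the subunit with PH-like, lipid-binding domains in mammals, and lies at chromosome III, 10258831 to 10261782, on the minus strand. Its peak at 10261505 to 10261920 had a signal of 139.3 in the optimal and pooled lists, 77.5 in replicate 1 and 64.6 in replicate 2. The ranks were 3076 of 4963, 2661 of 19354 and 3550 of 21452. This summit lay downstream of the annotated 5′ end, by 69 bp in the pooled list and replicate 1 and by 91 bp in replicate 2, in the 5′ UTR. The X-box of bbs-5 is there as well: it spans 59 to 72 bp downstream, and the pooled and replicate 1 summits fell inside it. The start codon follows 124 bp downstream of the 5′ end. The 5′ end of bbs-5 overlaps the upstream gene inpp-4B by 20 bp. At bbs-5 both the summit and the X-box thus lay in the transcribed part, while at bbs-4, bbs-8 and osm-12 both lay before the 5′ end.

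In bbs-2 and arl-6 an X-box and the summit again lay together, but not as a reproducible peak in the window. The bbs-2 gene (chromosome IV, 7934033 to 7937749, plus strand) had a pooled peak at 7933835 to 7934250 with a signal of 41.2, rank 14155 of 17956, and a −log10 q-value of 0.11. Replicate 1 gave a signal of 25.0 there, rank 12832, and replicate 2 listed no peak in the bbs-2 window. The signal is far below the cutoff of 94.9 and in the part of the list that includes background. Its summit, 10 bp downstream of the 5′ end, fell inside the X-box, and that of replicate 1 was 10 bp from it. All coding genes had a pooled summit of any signal in the window in 29.8% of cases, and 6 of the 8 did here.

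The arl-6 gene (chromosome III, 4812481 to 4814830, minus strand) had a reproducible peak at 4815772 to 4816187, but its summit was 1150 bp upstream of the 5′ end, so outside the window. The signal was 126.8 in the optimal and pooled lists, 72.2 in replicate 1 and 55.3 in replicate 2, with ranks of 3498, 2909 and 4315. All 3 ranks are within the best 4963 of their lists, which the peaks of osm-12 and bbs-1 were not in replicate 2. The summit lay in the 3′ UTR of the upstream gene F26A1.7, which ends 989 bp before arl-6, and in no coding gene's window. The nearest coding 5′ end was that of arl-6. The X-box of arl-6 printed above was 27 bp from this summit, and 10 bp from the summit of replicate 2. A second X-box with no mismatch lies inside the window at -767 to -754, and no list had a summit nearer to it than 366 bp.
arl-6: ggaagcagGTCGCTATGGGAATtattttga
This stretch is chrIII:4815576-4815605, minus strand, with the second X-box in capitals. As printed it has 1 mismatch, since the match without a mismatch is on the other strand.

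The bbs-1 product contacts the ARL6 GTPase in mammals, and the gene lies at chromosome I, 14371138 to 14376086, on the minus strand. Its peak at 14375917 to 14376332 had a signal of 101.5 in the optimal and pooled lists, 58.9 in replicate 1 and 34.6 in replicate 2. The ranks of 4608 of 4963, 3827 of 19354 and 7441 of 21452 were the furthest apart between replicates among the members with a peak in both. The intergenic summit was 39 bp upstream of the 5′ end, and 66 and 78 bp upstream in replicates 1 and 2. bbs-1 has a pair of X-boxes, one without a mismatch at -31 to -18 and one with 1 mismatch at -75 to -62. The pooled summit lay between them, 8 bp from the first and 23 bp from the second. The summit of replicate 1 was inside the second, and that of replicate 2 was 3 bp from it. Inside bbs-1 the pooled list had a low peak of 37.0 (rank 17095).

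No list had a summit in the window of bbs-9, a β-propeller subunit gene at chromosome I, 6917700 to 6922973, on the minus strand. It does hold an X-box without a mismatch, at -63 to -50 from the 5′ end. The nearest pooled summit was 310 bp from that site, in an intron 260 bp downstream of the 5′ end, with a signal of 36.1 and a rank of 17790 of 17956. Replicate 1 had a peak at the same summit position (signal 25.0, rank 12820). Replicate 2 had its nearest peak 1048 bp upstream (signal 16.9, rank 20803). The upstream gene C48B6.10 ends 95 bp before bbs-9 begins. A site near the 5′ end therefore did not go with a reproducible peak at every member. Across coding genes with an X-box without a mismatch from 250 bp upstream to 50 bp downstream, 95 of 530 (17.9%) had a reproducible summit in their promoter window. Of the 4 BBSome genes with such a site, bbs-1, bbs-4 and osm-12 did and bbs-9 did not.

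By rank in the replicates, the genes fell in an order that was largely shared. In replicate 1 the order was bbs-8, bbs-4, bbs-5, arl-6, bbs-1, osm-12 and bbs-2, and in replicate 2 it was the same except that osm-12 came before bbs-1 and bbs-2 had no peak. Within each replicate bbs-8 was above bbs-4, bbs-4 above bbs-5, bbs-5 above arl-6 (2661 and 2909 in replicate 1, 3550 and 4315 in replicate 2) and arl-6 above both bbs-1 and osm-12. The order of bbs-1 and osm-12 was not the same in both replicates. For this order ranks were compared only within a list, since the lists differ in length. With 2 replicates no test of these differences was made. Among the 4963 peaks of highest signal in each replicate, replicate 1 placed a summit in the window of 5 members, where 13.5% of all coding genes had one. Replicate 2 did so for 3, bbs-4, bbs-5 and bbs-8, where 13.8% of all coding genes had one. Falling outside the best peaks of 1 replicate was common at this rank: of the 363 optimal peaks ranked below 4600, 13.5% were among the best 4963 in both replicates, 56.2% in replicate 1 and 48.5% in replicate 2.

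**Figure D2:**
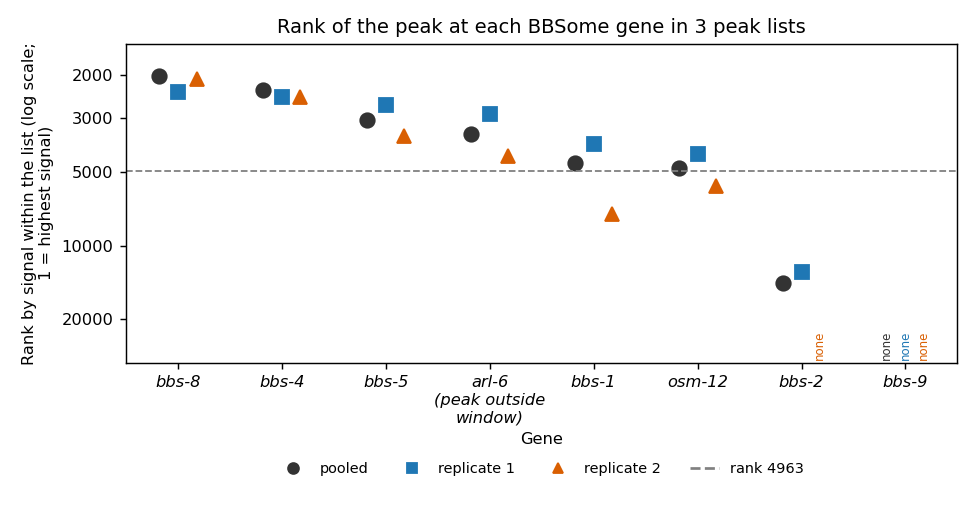
Rank by signal of the highest window peak of each gene (for arl-6, the peak beyond the window) in the pooled list and in each replicate, on a log scale with high signal at the top; the dashed line is rank 4963. bbs-8, bbs-4, bbs-5 and arl-6 are above the line in all 3 lists, bbs-1 and osm-12 fall below it in replicate 2, and bbs-2 is below it where it has a peak.

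Under other rules for calling a gene, bbs-4 and bbs-8 were called in 13 of 13 settings, the reported one included, and bbs-9 in 0. With the 2481 highest pooled peaks, bbs-4 and bbs-8 were called, 2 of 8 beside 8.08% of all coding genes. With 9926 pooled peaks the same 5 were called beside 21.3% of all. With all peaks of replicate 1 bbs-2 was added, 6 of 8 beside 30.2%, and with all peaks of replicate 2 the same 5 were called beside 32.6%. A window from 500 bp upstream to 100 bp downstream also gave those 5, beside 10.7%, as did the 5′ ends of every coding transcript, beside 15%. The peak beyond the window of arl-6 was counted under a window from 2000 bp upstream to 500 bp downstream, under overlap of the peak with the window, and by the nearest coding gene. Each gave 6 of 8, beside 18.8%, 15.1% and 18.1% of all coding genes. Inside the genes, the best peaks of replicate 1 and of replicate 2 each gave 0 of 8, beside 4.9% and 4.7% of all. Taking every listed peak, 2 of 8 genes had one inside in the pooled list (21.7% of all), 4 of 8 in replicate 1 (25.2%) and 2 of 8 in replicate 2 (27.2%). The counts in the pooled list and in replicate 2 are near the background share, and none of these peaks was among the reproducible ones.

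At the BBSome peaks, summits repeated about as closely in position as at other peaks. Between replicates they differed by 3 bp at osm-12, 7 bp at bbs-4, 12 bp at bbs-1, 13 bp at bbs-8 and 22 bp at bbs-5, and by 17 bp at the arl-6 peak. The median of the 5 window peaks was 12 bp. It was 19 bp for the 4960 optimal peaks present in both replicate lists (quartiles 7 and 41 bp). Each of these 6 peaks was 416 bp wide in the pooled list, with its summit offset of 208 bp at the centre, as were most peaks of that list. Each of these summits is thus the centre of a peak of fixed width. Summit positions differed between replicates by the distances given, so a summit does not resolve single bases.

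None of the 5 window peaks exceeded the median signal of bound genes, and all lay close to the 5′ end. Over all 2752 coding genes with a reproducible summit in the window, the highest peak had a median signal of 189.3 and a median rank of 2018. A peak shared by several windows counts once for each of those genes. The 5 BBSome genes had a median signal of 139.3 and a median rank of 3076, and bbs-8, at 189.3, was at the median of all. Their summits were a median of 43 bp from the 5′ end, on either side, beside 233 bp for all bound genes (quartiles 128 and 447 bp). All 5 were within 100 bp of the 5′ end, as were 527 of the 2752 (19.1%).

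**Figure D3:**
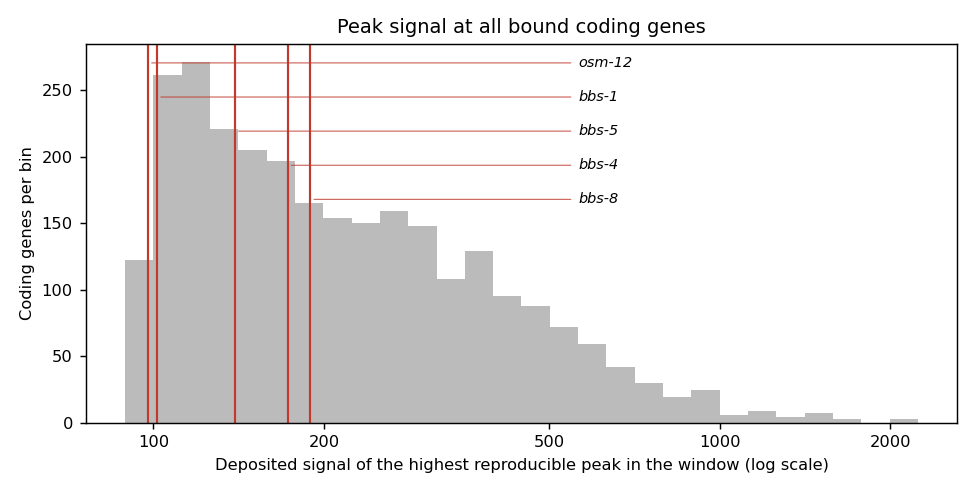
Signal of the highest reproducible peak in the promoter window of each of 2752 bound coding genes (grey; log scale), with the 5 bound BBSome genes as red lines. osm-12 (97.8) and bbs-1 (101.5) lie at the low end and bbs-8 at the median of 189.3.

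**Figure D4:**
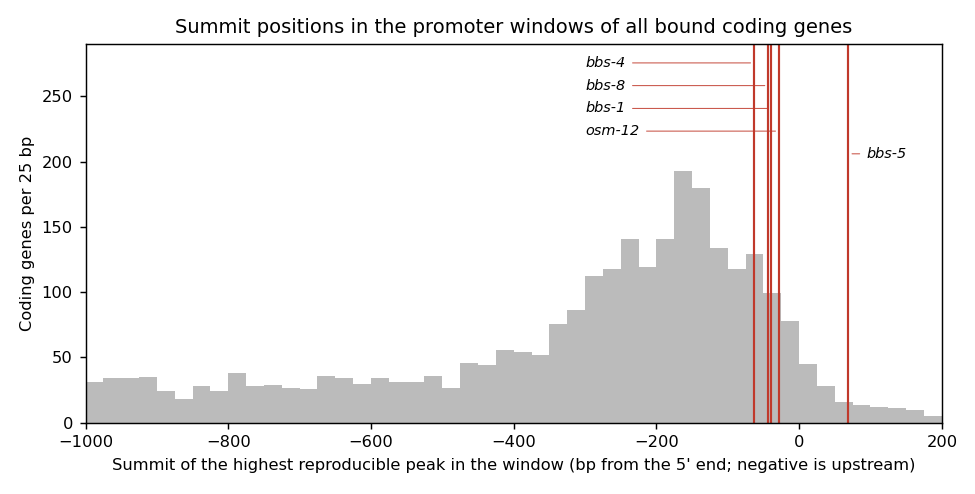
Position of the same summits relative to the annotated 5′ end, in bins of 25 bp (grey), with the 5 bound BBSome genes as red lines. All 5 lie within 100 bp of the 5′ end, 4 upstream and bbs-5 downstream, nearer than the median distance of 233 bp.

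Motifs were counted beside the summits on both strands. Within 50 bp, 5 of the 5 window peaks had an X-box with at most 1 mismatch, as did 14.3% of all 4963 optimal peaks. With no mismatch it was 4 of 5, all but bbs-8, beside 2.46%, and with a match in both orientations 5 of 5 beside 3.61%. The distance of 50 bp was chosen after the sites had been seen. The forkhead cores GTAAACA and ATAAACA were beside 0 of 5, and beside 2.32% and 2.54% of all peaks. GACGC was beside bbs-4 and bbs-8, 2 of 5 (22.4% of all), and the comparison motif GAGAGA beside bbs-5, 1 of 5 (24% of all). GTTGCCAT, which overlaps the X-box, was beside 4 of 5 and 0.806% of all peaks. That run was picked from the sites beside these same peaks, so its count here was fixed by the choice and supports nothing. These counts are of letters in the reference and say nothing of which factor was there.

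**Figure D5:**
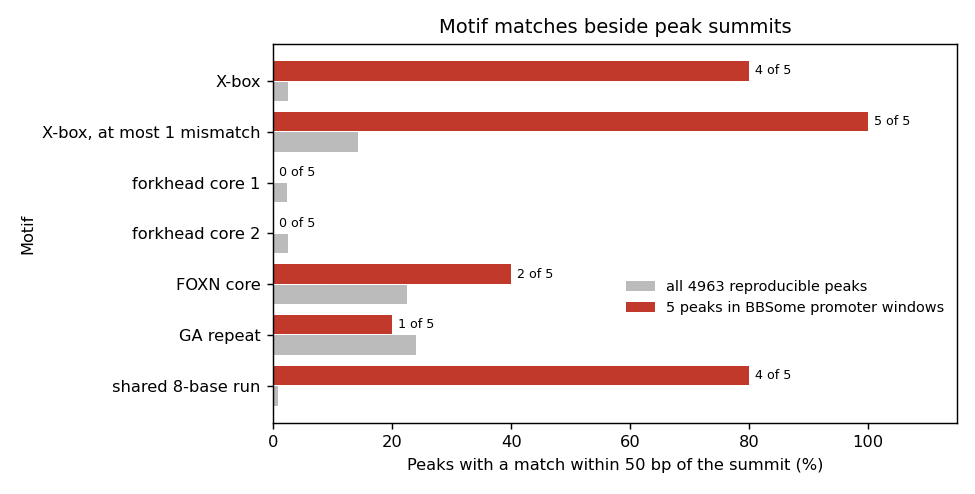
Share of peaks with a motif match within 50 bp of the summit (%), for all 4963 reproducible peaks (grey) and the 5 in BBSome promoter windows (red, with counts); the forkhead cores 1 and 2 are GTAAACA and ATAAACA, the FOXN core is GACGC, the GA repeat is GAGAGA and the shared run is GTTGCCAT. X-box matches are beside 4 or 5 of the 5 BBSome peaks and beside at most 14.3% of all peaks. The shared run was picked from sites at these BBSome peaks, so its red bar was fixed by that choice.

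Over the whole windows, 6 of the 8 genes held an X-box with no mismatch (bbs-1, bbs-4, bbs-5, osm-12, bbs-9 and arl-6), beside 10.2% of all coding genes. With 1 mismatch allowed it was 8 of 8 beside 83% of all, so that looser rule separates few windows. A match in both orientations within 1 mismatch was found in 8 of 8 and in 18.4% of all windows. GTAAACA occurred in 0 of 8 windows and 15.1% of all, and ATAAACA in that of bbs-5 (29% of all). GACGC was found in 5 of 8, beside 52.5% of all, and GAGAGA in 5 of 8, beside 50.9%. GTTGCCAT was in 5 of 8, at bbs-2, bbs-4, bbs-5, osm-12 and bbs-8, beside 3.16%. It was picked from the sites of these same genes, so this count too was fixed by the choice.

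A chosen list of 23 other genes linked to cilia, called partners here, was counted in the same way. It is not a full list of the pathway, and not every product is known to bind the BBSome. Of the 23, 12 had a reproducible summit in the window, beside the same 13.8% of all coding genes. Of the IFT-A particle, which takes part in retrograde transport, 4 of 6 had one: ift-43 (signal 414.1), ifta-1 (367.6), dyf-2 (262.4) and daf-10 (175.8). Of the kinesins and their activator, which move trains outward and stay joined with the BBSome's help in worm cilia, klp-11 did (155.8), 1 of 5. Ciliary small GTPases had 3 of 4, with arl-13 at 195.5, rab-28, an IFT-associated Rab that depends on the BBSome in worms, at 121.7, and rab-8 at 95.2, just above the cutoff. Membrane and channel proteins had 3 of 7: the TRPV channel gene osm-9 (144.1), the diacetyl receptor gene odr-10 (127.7) and the cyclic nucleotide-gated channel gene tax-4 (99.7). The RFX gene daf-19 had a signal of 579.3, rank 208, above every BBSome gene. The partner summits were less close to the 5′ end, with a median of 322 bp for the 12 beside 43 bp for the 5 BBSome genes. An X-box with at most 1 mismatch lay within 50 bp of 4 of the 12 summits, beside 14.3% of all optimal peaks. They were those at ifta-1, arl-13, rab-28 and daf-19. The summits at dyf-2, daf-10, ift-43, klp-11 and rab-8 also fell in another coding gene's window. The share of such summits over all bound genes is not given here, so this is not a trait of either list. No test of the difference between the lists was made.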

How the data were processed

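ChIP-seq peak lists of 2 biological replicates were used, on ce11. Per the labels, each replicate's and the pooled list hold peaks and background as input for IDR, and the optimal list holds peaks past an IDR threshold. The deposited signal per peak has no stated scaling, and the deposited −log10 q-value reached a shared limit in each list. The aligner and peak caller are not given in the sources used here, nor is the IDR cutoff. A control mentioned in the labels, and the ce10 lists, were not used here. The lists hold no counts, so depth is unknown.

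Summits were placed against Ensembl release 115 gene models and RefSeq WBcel235 sequence, with Python 3.11.15 and NumPy 2.4.6. No peak ended beyond a chromosome. The placing and motif functions were tested on simulated data. Shares over all coding genes or peaks stand beside most counts of peaks and motifs, with no set test. The text names all 8 members, the adjacent upstream genes, genes overlapping a member's site or summit, and partner genes with a reproducible peak. Members, partners, motifs and windows were chosen with earlier results of these data known. Overlaps of peaks needed 1 base. The replicates came from separate biosamples per the labels.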

Additional observations from a re-analysis of the deposited data

How the results depend on the processing

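The count of 5 members with a reproducible summit in the window ranged from 3 to 5 with each replicate left out in turn: the best peaks of replicate 2 alone gave 3, without bbs-1 and osm-12. With the 2481 highest pooled peaks it was 2, bbs-4 and bbs-8, where 8.08% of all coding genes were called. It was 6 with all pooled peaks or all replicate 1 peaks, which added bbs-2, and 6 with the window from 2000 bp upstream to 500 bp downstream, with overlap in place of the summit, or by the nearest coding gene, which added arl-6. The count of 0 members with a peak elsewhere in the gene was also 0 with either replicate left out, and 2 with all pooled peaks (bbs-1 and bbs-9), where 21.7% of all coding genes had one. Partner genes ranged from 10 to 13 of 23 with a replicate left out, beside 13.8% and 13.5% of all coding genes. They were 6 with the 2481 highest pooled peaks, beside 8.08%. With the window from 500 bp upstream to 100 bp downstream they were 9, beside 10.7%. By the nearest coding gene they were 12, but without ift-43 and rab-8, beside 18.1%. The X-box counts stayed within 1.5 times of those reported. The cause of these changes was not tested. Depth is unknown, so a missing peak at bbs-2 or bbs-9 says only that none was listed.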

Other observations

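The X-box of bbs-1 without a mismatch overlaps an annotated piRNA gene, 21ur-15055, on the same strand. Replicate 1 listed low peaks inside 4 of the 8 genes (bbs-1, bbs-5, osm-12 and bbs-9), where 25.2% of all coding genes had one, and replicate 2 inside 2 (bbs-1 and osm-12), where 27.2% had one.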
